A study of Homo sapiens with 6 samples.

Results

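The comparison described here sets the primed CA-p38 line against its parental primed EOS line, before any induction of naive cells. Its members are the 2 primed libraries of the 6 bulk RNA-seq libraries, 1 for each line, chosen by their labels. Expression was compared across the 19704 protein-coding genes that lie on chromosomes. The other 4 libraries come from naive cells: AICAR naive (2), VPA naive (1) and CA-p38 naive (1).

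Both primed lines are human embryonic stem cells labelled untreated. They were grown without feeders on Matrigel in StemFit AK02N, and both carry EOS, a piggyBac reporter that expresses EGFP and puromycin resistance and was selected with puromycin. The CA-p38 line carries in addition a Tet-ON construct for a constitutively active form of p38, in a piggyBac vector that also encodes rtTA and mCherry. To make it, EOS cells were treated with doxycycline and the mCherry-positive cells were sorted. Neither the clonality of the lines nor the species of the p38 cDNA is given in the sources used here. The naive cells grew in PXGL medium, by the methods on mouse feeders, and were sorted for CD75 and SUSD2. For CA-p38-induced cells the paper also describes a later move to PXGL without feeders. AICAR or VPA was applied to the EOS line, and doxycycline to the CA-p38 line.

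p38 kinases relay stress and cytokine signals from upstream kinases to downstream kinases and transcription factors. Primed pluripotent cells resemble the epiblast shortly before gastrulation. Under Nodal, Wnt and BMP signals they can enter the primitive streak, from which mesoderm and definitive endoderm form, and EOMES, MIXL1, FOXA2 and SOX17 mark that step. Oxygen and nutrient supply set the level of another group of genes, among them DDIT4, an inhibitor of the growth kinase complex mTORC1, and SLC16A3, a lactate exporter.

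The promoters of genes that differed most, or together, are shown first. Each window is the 250 bases before the RefSeq start (GRCh38.p14), read 5′ to 3′ on the strand of the gene. In DDIT4 (chr10:72273674-72273923, + strand) and BHLHE40 (chr3:4979187-4979436, + strand), capitals mark ACGTG on either strand, the core letters of the hypoxia-response element. CACGTG, an E-box, contains ACGTG and overlaps it on both strands. In MT1X (chr16:56682220-56682469, + strand), capitals mark TGCACNC or TGCGCNC on either strand, the core of the metal-response element.
DDIT4: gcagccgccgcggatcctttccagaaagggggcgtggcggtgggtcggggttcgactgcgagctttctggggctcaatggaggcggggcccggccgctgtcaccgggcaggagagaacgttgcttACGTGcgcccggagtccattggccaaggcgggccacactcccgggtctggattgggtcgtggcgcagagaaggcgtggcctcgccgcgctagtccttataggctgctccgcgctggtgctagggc
BHLHE40: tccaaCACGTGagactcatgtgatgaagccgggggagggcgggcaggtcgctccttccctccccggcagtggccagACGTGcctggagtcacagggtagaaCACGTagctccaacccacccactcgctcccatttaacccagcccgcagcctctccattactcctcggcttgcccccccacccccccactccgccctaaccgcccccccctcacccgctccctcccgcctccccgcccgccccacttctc
MT1X: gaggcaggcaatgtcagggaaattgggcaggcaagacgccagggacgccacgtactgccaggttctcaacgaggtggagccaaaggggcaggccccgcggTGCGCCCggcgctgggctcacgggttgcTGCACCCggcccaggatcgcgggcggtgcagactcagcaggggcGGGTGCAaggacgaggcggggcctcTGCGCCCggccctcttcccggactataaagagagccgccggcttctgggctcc
DDIT4 held 1 match, BHLHE40 held 4 and MT1X held 4. Of 27195 promoters of this length, 18.7% held ACGTG and 24.8% held TGCACNC or TGCGCNC. Among the 12 genes with the lowest folds at a mean level of 5 CPM or more, 10 had a window and 4 of these held ACGTG, namely BNIP3, PPFIA4, BHLHE40 and DDIT4. In 3 of the 4, BNIP3, PPFIA4 and BHLHE40, the window held the E-box CACGTG, as did 6.5% of all promoters. Among the 12 with the highest folds at that level, 8 had a window and 0 held ACGTG. Of the 6 metallothionein genes with enough counts, 3 had a window (MT1H, MT1X and MT2A), and all 3 held the metal-response letters.

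Total counts per library ran from 46823699 to 54277064, with 50794764 in EOS primed and 52274570 in CA-p38 primed. Levels are CPM, counts relative to the library total after scaling with TMM factors, 0.965 for EOS primed and 0.932 for CA-p38 primed. The labels name the H1 line and the methods name H9. With 2 genes that H1 should express, 6 of 6 libraries did not match the labelled line. A first form of that check, which summed 5 genes against the same limit of 1 CPM, gave 1 of 6, and the narrower form was chosen after that count was seen. The pluripotency genes POU5F1 (452 and 424 CPM in EOS primed and CA-p38 primed), SOX2 (236 and 238 CPM) and NANOG (85.6 and 98.4 CPM) were expressed in both. EOS primed had counts on 14850 lncRNA genes and CA-p38 primed on 10171.

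With 1 library a side the differences have no replicate check and no test. Each fold is given with a 95% Clopper-Pearson interval that covers counting error only. A gene was assessed when its mean over the 2 primed libraries was at least 1 CPM, and called past 2-fold when its fold reached 2 and its interval left out 1. Of 13698 genes assessed, the middle of the distribution (25th to 75th percentile) ran from -0.11 to 0.23 on the log2 scale. CA-p38 primed was higher for 100 genes (0.73%) and lower for 169 (1.23%). A gene low in 1 line can reach the mean of 1 CPM through the other alone, and with 1 CPM asked of each line, a rule added after the data were seen, 52 were higher and 109 lower of 13422. The median log2 fold was 0.06 and the SD over genes 0.36. At 4-fold, 10 genes were higher and 20 lower. The AICAR naive pair, the only 2 libraries of 1 group, harvested at different passages, gives a scale for these numbers: by the same rule 309 of 13647 genes (2.26%) differed between them, with an SD of 0.37. The genes past 2-fold between the primed lines are thus no more numerous than those between the AICAR replicates. Most were expressed at low levels, with a median of 1.93 CPM for those higher and 2.46 CPM for those lower, against 25.7 CPM for all genes assessed. Of the 100 higher genes, 10 were also past 2-fold between the AICAR replicates, as were 7 of the 169 lower ones.

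**Figure D1:**
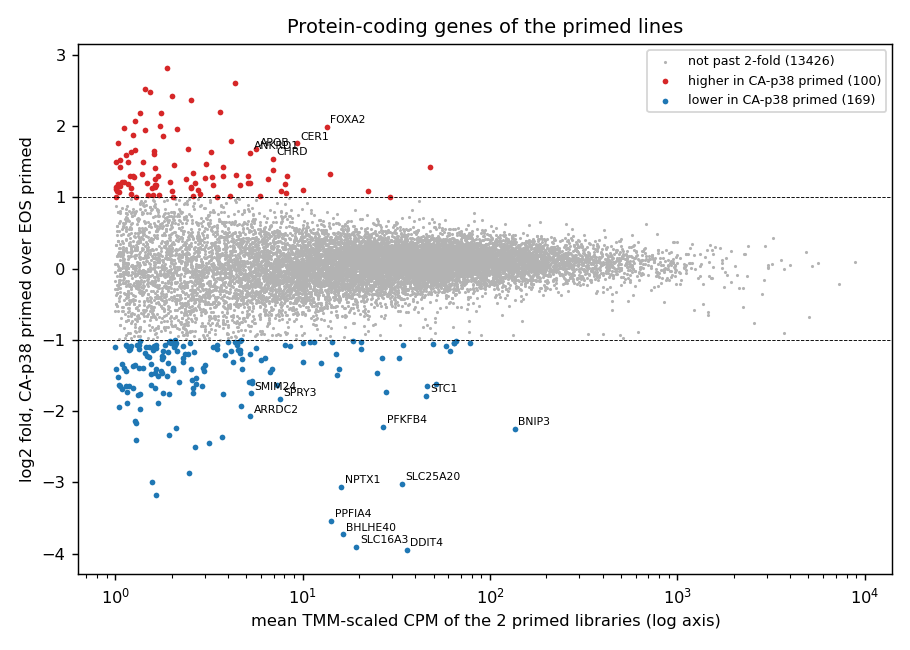
Each dot is a protein-coding gene, placed by its mean TMM-scaled CPM in the 2 primed libraries (log axis) and its log2 fold of CA-p38 primed over EOS primed; Y-linked genes are not drawn. The 100 higher genes (red) sit mostly at low levels, and DDIT4, SLC16A3 and BHLHE40 lie lowest.

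**Figure D2:**
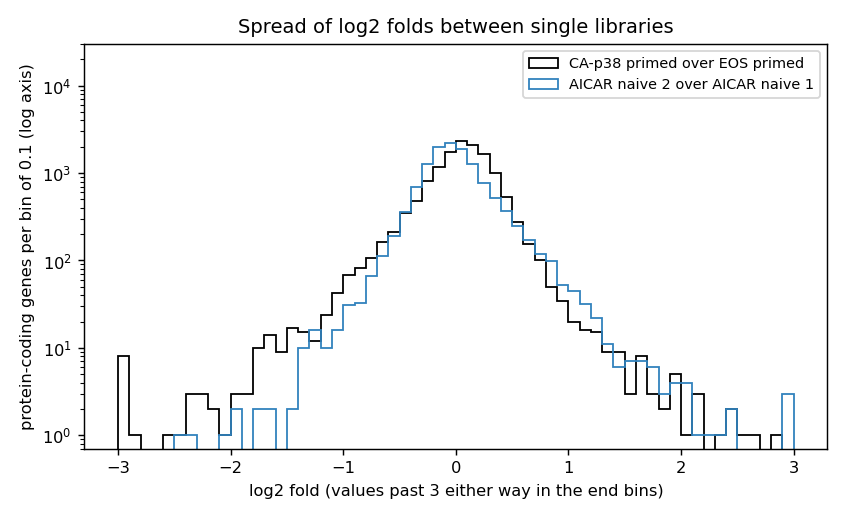
Number of protein-coding genes per bin of log2 fold (log axis) for the primed lines (black) and the AICAR naive replicates (blue). The primed outline holds genes whose primed mean reached 1 CPM, and the AICAR outline those of them whose AICAR mean also did. The SDs (0.36 and 0.37) are over all genes assessed in each pair, 13698 and 13647, so the second covers genes not drawn. The primed outline reaches further on the low side.

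Among the p38 genes, MAPK14, MAPK12 and MAPK11 hardly differed, while MAPK13 was lower in CA-p38 primed. MAPK14 (chr6:36027782-36111236), which encodes p38 alpha, was at 45.6 CPM in EOS primed and 52.4 CPM in CA-p38 primed, a fold of 1.147 with an interval of 1.083 to 1.214. Reads from the p38 transgene could be counted on MAPK14, and their part in this value was not tested. In the naive libraries MAPK14 ran from 41.0 to 55.3 CPM, a range that takes in both primed values. MAPK12 was 0.93-fold, MAPK11 0.89-fold and MAPK13 0.56-fold, MAPK13 at 18.2 CPM in EOS primed and 10.2 CPM in CA-p38 primed. Of 39 assessed genes of the p38 cascade, from upstream kinases to phosphatases and substrates, 0 were past 2-fold higher and 1 was lower, with a median log2 fold of 0.10 beside 0.06 for all genes. The lower one was GADD45G, an activator of the upstream kinase MAP3K4, at 2.61 and 1.29 CPM, and it was no longer past 2-fold with median-ratio scaling (log2 fold -0.97). The kinase substrate MAPKAPK2 was at 65.7 CPM in EOS primed and 69.2 CPM in CA-p38 primed. The phosphatases that switch p38 off differed by less than 2-fold as well, DUSP1 at 5.43 and 6.24 CPM and DUSP10 at 0.82 and 1.60 CPM. Of 23 immediate early and AP-1 genes, only FOSL2 was past 2-fold, at 7.74 CPM in EOS primed and 2.57 CPM in CA-p38 primed, 3.014-fold lower (2.456 to 3.719). For both lists, the shares past 2-fold over all genes assessed were 0.73% higher and 1.23% lower.

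Several genes of the primitive streak and endoderm were higher in CA-p38 primed. Of all 30 listed, whatever their level, 21 had a higher CPM in CA-p38 primed, 7 a lower one and 2 had no counts in either. Of the 14 assessed, 7 were past 2-fold higher, against 0.73% of all genes assessed, and 0 lower. The median log2 fold of the 14 was 1.11 beside 0.06 for all genes. GATA6 reached the filter only through CA-p38 primed, where it is high, and over the 13 members at 1 CPM or more in each line 6 were higher and the median was 0.79. In bulk RNA a larger share of cells of a type and more RNA per cell cannot be told apart. FOXA2 (chr20:22580998-22585455), a factor of the anterior streak and endoderm, was at 5.41 CPM in EOS primed and 21.5 CPM in CA-p38 primed, 3.98-fold higher (3.47 to 4.57). Its level in the 4 naive libraries was at most 1.18 CPM, so CA-p38 primed stood above all other libraries. EOMES (chr3:27715949-27722711), a T-box factor that starts endoderm formation, was at 1.23 and 7.45 CPM, 6.09-fold higher (4.62 to 8.14). GATA6 (chr18:22169589-22202528), an endoderm factor, was at 0.47 and 3.31 CPM, 7.04-fold higher (4.53 to 11.4). For GATA6 the naive libraries lay between 0.95 and 3.04 CPM, above EOS primed. SOX17, a definitive endoderm factor, was at 1.57 and 4.89 CPM, 3.11-fold higher (2.40 to 4.08). MIXL1, a homeobox gene of the streak, was at 2.02 and 5.46 CPM. AFP, a product of visceral endoderm and fetal liver, was at 1.31 and 5.97 CPM, yet it also differed between the AICAR replicates (0.20 and 5.12 CPM). APOB, an apolipoprotein of endodermal tissues, was likewise 3.20-fold higher (2.63 to 3.92) between the primed lines and differed between the AICAR replicates (0.092 and 3.93 CPM).

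Members that missed the filter of 1 CPM are given by their counts, and those named here were chosen after their values were seen. TBXT, the defining gene of the streak, had 3 counts in EOS primed and 35 in CA-p38 primed, a ratio of 11.7 with an interval of 3.70 to 59.6. FOXA1 had 16 and 72 counts, GSC 15 and 38, and GATA4 0 and 21. HAND1, a gene of lateral mesoderm and amnion, went the other way, with 12 and 0 counts. MSGN1 and GATA5 had 0 counts in both, and MESP1 had 23 and 14. The list as a whole summed to 131 CPM in EOS primed and 207.5 CPM in CA-p38 primed, and to between 64.8 and 72.2 CPM in the naive libraries. KDR, a VEGF receptor, made up the largest part, at 85.2 and 102 CPM.

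**Figure D3:**
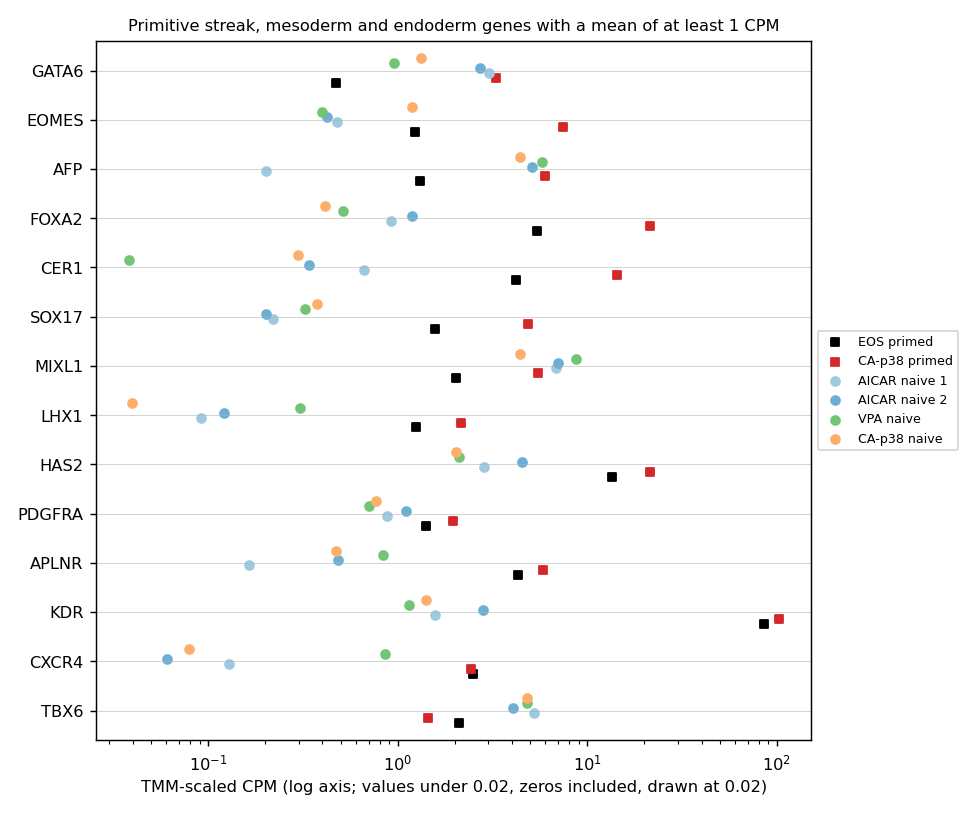
TMM-scaled CPM (log axis) of the 14 assessed primitive streak, mesoderm and endoderm genes in each of the 6 libraries (squares primed, circles naive). CA-p38 primed (red) lies to the right of EOS primed (black) for 12 of the 14, with CXCR4 and TBX6 as the exceptions.

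Among the signals that pattern the streak, single ligands, antagonists and targets differed. CER1 (chr9:14719724-14722733), a secreted antagonist of Nodal, BMP and Wnt, was at 4.22 CPM in EOS primed and 14.3 CPM in CA-p38 primed, 3.39-fold higher (2.90 to 3.98). CHRD, a BMP antagonist of the organizer, was at 3.53 and 10.3 CPM, 2.92-fold higher (2.45 to 3.49). Among the ligands, BMP2 was at 0.82 and 4.23 CPM, 5.18-fold higher (3.68 to 7.46), and FGF17 at 0.88 and 3.41 CPM, 3.88-fold higher (2.76 to 5.57). NODAL was at 14.2 and 20.8 CPM, LEFTY1 at 54.3 and 80.6 CPM and BMP4 at 2.71 and 5.13 CPM, none of them past 2-fold. NOG, another BMP antagonist, was lower, at 1.84 and 0.84 CPM. SP5, a direct target of Wnt signals, was at 1.86 and 6.41 CPM, 3.45-fold higher (2.72 to 4.41), while AXIN2, a broad Wnt target, was at 23.2 and 28.5 CPM. Below the filter, the Wnt antagonists DKK1 (5 and 79 counts) and DKK4 (2 and 37 counts), the receptor LGR5 (2 and 28 counts) and the ligand WNT3A (1 and 16 counts) had more counts in CA-p38 primed. These 4 were named after their values were seen, and the ratio for DKK1 was 15.9 (6.53 to 50.3). In counts past 2-fold, 1 of 27 Nodal, activin and TGF-beta genes and 1 of 23 Wnt genes were higher. For BMP genes it was 2 of 17, and for the FGF and ERK list 0 of 27. Over all genes assessed the share was 0.73%. FGF17 is not in the FGF and ERK list, and was the 1 higher of 8 in the fibroblast growth factor family. BMP2 and FGF17 reached the filter only through CA-p38 primed and NOG only through EOS primed. Without BMP2 and NOG, 1 of 15 BMP genes was higher and 0 lower. With 1 CPM in each line, 0 of 7 in the fibroblast growth factor family were higher. The median log2 folds of the Nodal, Wnt, BMP and FGF and ERK lists were 0.20, 0.18, 0.07 and 0.17.

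Other genes with the highest folds had varied roles. PCSK5, a protease that activates TGF-beta family precursors, was at 25.8 and 69.5 CPM, 2.70-fold higher (2.53 to 2.88), and the naive libraries lay between 63.0 and 84.0 CPM. ANKRD1, a target of the Hippo effector YAP, was at 2.57 and 7.95 CPM, 3.09-fold higher (2.52 to 3.81), the 1 gene past 2-fold of 23 Hippo and YAP targets. CST1, a cystatin, was at 7.98 and 20.1 CPM and at no more than 0.16 CPM in any naive library. CYP26A1, which degrades retinoic acid, was at 4.86 and 10.4 CPM, 2.14-fold higher (1.83 to 2.51). HESX1, a homeobox gene of anterior epiblast and forebrain, was at 1.61 and 4.46 CPM. PRDM1, a repressor used in endoderm and germ cells, was at 0.47 and 2.61 CPM, 5.55-fold higher (3.54 to 9.08). It reached the filter only through CA-p38 primed. CDH6, IGFBP3, NKX1-2, AHNAK and H2AC6 completed the 12 highest with folds between 2.30 and 2.61. Of 19 assessed genes of the replication-dependent histone family 5 were higher, against 0.73% of all genes assessed, and 0 lower (median log2 fold 0.43). Among the 19, 3 reached the filter only through CA-p38 primed, and with 1 CPM in each line 3 of 16 were higher. The family sum, 222 CPM in EOS primed and 209 CPM in CA-p38 primed, was mostly H1-10, at 165 and 127 CPM. H1-10, counted among the 19, is a linker histone that is not replication-dependent. The sum therefore does not give the direction of the other members. The mRNAs of replication-dependent histones lack a poly(A) tail, and the libraries were selected for poly(A). Near-identical copies also share reads, so single histone values are uncertain. The histone gene H2BC4, for example, had 30 and 84 counts, and also differed between the AICAR replicates (1.41 and 2.83 CPM).

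Pluripotency and the primed state differed little. Of 22 core pluripotency genes, 0 were past 2-fold higher and 1 lower, with a median log2 fold of 0.21. The lower one was UTF1, a chromatin factor of pluripotent cells, at 6.18 and 2.81 CPM, 2.198-fold lower (1.791 to 2.71), far under the 186 to 206 CPM of the naive libraries. PRDM14, a repressor of differentiation, was at 27.6 and 49.0 CPM. Of 25 primed state genes 0 were past 2-fold, and the largest fold among them was that of OTX2, an anterior epiblast factor, at 19.5 and 29.8 CPM. Naive state genes summed to 83.4 CPM in EOS primed and 91.5 CPM in CA-p38 primed, and to between 8440 and 9666 CPM in the naive libraries. Most members did not follow that sum: of 29, 10 had a higher CPM in CA-p38 primed, 18 a lower one and 1 no counts in either. Of 9 assessed, 1 was past 2-fold higher and 0 lower. That gene, GATA6, reached the filter only through CA-p38 primed, and with 1 CPM in each line 0 of 8 were higher. Markers of other cell types that a culture could hold moved in single genes. Neural and neural crest genes had 1 higher and 2 lower of 17, the latter ELAVL3 (2.55 and 0.94 CPM) and SOX10 (2.47 and 1.11 CPM). Trophoblast and amnion genes had 1 higher and 1 lower of 10. Fibroblast genes had 3 lower of 14 (S100A4, LOX and COL3A1), while COL1A1 was at 60.5 and 59.9 CPM. ELAVL3, S100A4 and the lower trophoblast gene, ENPEP, reached the filter only through EOS primed. With 1 CPM in each line, the neural list had 1 higher and 1 lower of 16. The trophoblast list then had 1 higher and 0 lower of 8, and the fibroblast list 0 higher and 2 lower of 13. Over all genes assessed, 0.73% were higher and 1.23% lower. Summed, the neural list was at 737 and 811 CPM, the trophoblast list at 318 and 342 CPM and the fibroblast list at 642 and 624 CPM, and the part of such cells in the differences was not tested. Spermatid transcripts had 0 past 2-fold of 4.

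**Figure D4:**
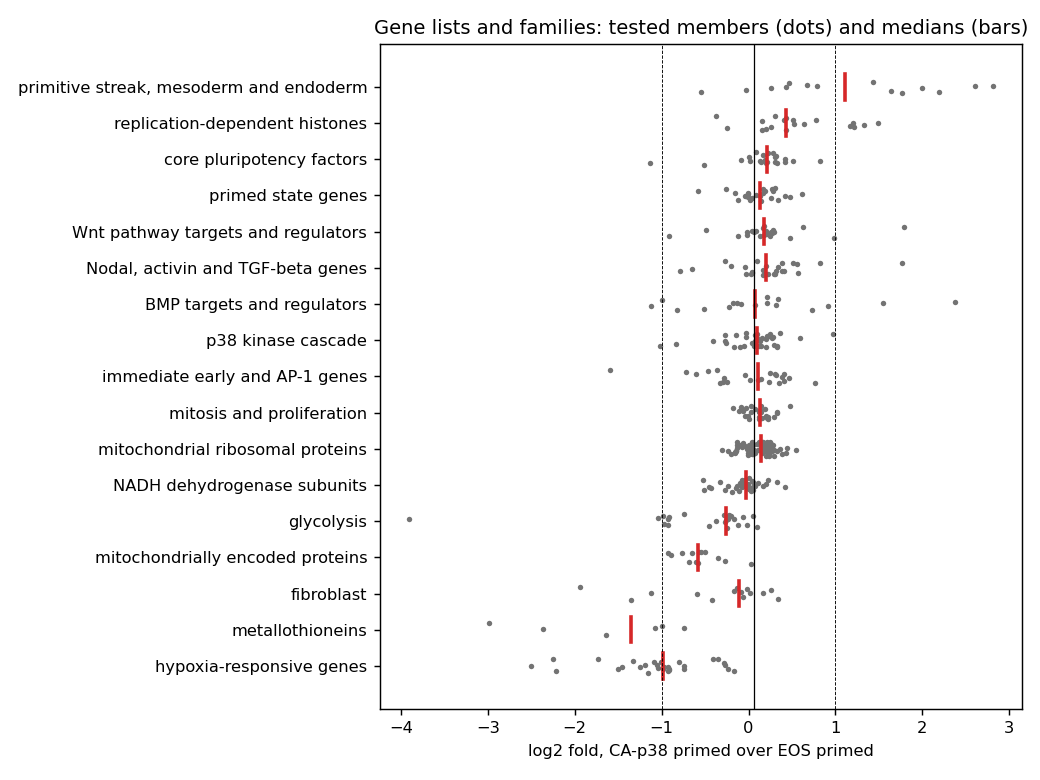
Log2 fold of CA-p38 primed over EOS primed for the assessed members (dots) and the median (red bars) of 17 lists and families, with the median of all genes (solid line) and 2-fold (dashed lines). Streak and endoderm genes lie to the right (median 1.11), hypoxia-responsive genes and metallothioneins to the left, and most others straddle the solid line.

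Among genes with a mean of 1 CPM or more, the largest folds were in those lower in CA-p38 primed. DDIT4 (chr10:72273919-72276036) was at 67.5 CPM in EOS primed and 4.37 CPM in CA-p38 primed, 15.4-fold lower (13.4 to 17.8). The naive libraries held DDIT4 at 31.4 to 82.2 CPM, so CA-p38 primed alone was low. SLC16A3 (chr17:82217934-82261129) was at 36.3 and 2.42 CPM, 15.0-fold lower (12.4 to 18.2), and between 40.2 and 71.4 CPM in the naive libraries. BHLHE40 (chr3:4979437-4985323), a transcriptional repressor that responds to hypoxia and takes part in the circadian clock, was at 30.4 and 2.30 CPM, 13.2-fold lower (10.9 to 16.2). PPFIA4, a liprin scaffold protein (chr1:203026491-203078740), was at 26.2 and 2.26 CPM, 11.6-fold lower (9.56 to 14.2). SLC25A20 (chr3:48856926-48898904), the carrier that moves acylcarnitines into mitochondria for fatty acid oxidation, was at 60.0 and 7.41 CPM, 8.09-fold lower (7.25 to 9.05). Its partners CPT1A (12.3 and 15.8 CPM) and CPT2 (45.1 and 44.8 CPM) were not past 2-fold. NPTX1, a secreted pentraxin of neurons, was at 28.6 and 3.43 CPM, 8.34-fold lower (7.10 to 9.85), and at most 2.45 CPM in the naive libraries. In 5 of these 6 genes CA-p38 primed lay below all other libraries, and NPTX1 was the exception.

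The rest of the 12 lowest were BNIP3, PFKFB4, ARRDC2, SPRY3, STC1 and SMIM24. BNIP3, a receptor for mitophagy, was at 224 and 47.2 CPM, and PFKFB4, which sets the level of a glycolytic activator, at 44.4 and 9.57 CPM. STC1, a secreted stanniocalcin, was at 71.0 and 20.6 CPM, 3.45-fold lower (3.21 to 3.70), and at most 0.49 CPM in the naive libraries. ARRDC2, an arrestin-domain protein, was at 8.45 and 2.01 CPM, with 56.6 to 66.0 CPM in the naive libraries. Only 2 of the 12 belong to the list of hypoxia-responsive genes, BNIP3 and PFKFB4. Of the 169 lower genes 155 lie outside that list. The list has only 29 assessed members. It leaves out genes whose levels are also known to follow oxygen supply, DDIT4, SLC16A3 and BHLHE40 among them, so these counts understate the genes linked to hypoxia. Within the list, 14 of 29 were past 2-fold lower, against 1.23% of all genes assessed, and 0 higher. All 29 had a log2 fold below 0 (median -0.98). HIF1A, which encodes the oxygen-regulated factor itself, was at 275.5 and 295.5 CPM. In the clock, BHLHE41, the paralog of BHLHE40, was at 5.37 and 0.99 CPM, 5.45-fold lower (3.99 to 7.57). BMAL1, a core activator of the clock, was 2.28-fold higher (1.96 to 2.67), at 4.92 and 11.2 CPM. PER1 (33.2 and 32.5 CPM) and CRY1 (28.9 and 30.9 CPM) were not past 2-fold. These clock genes, and HIF1A, CPT1A and CPT2, were named after their values were seen.

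**Figure D5:**
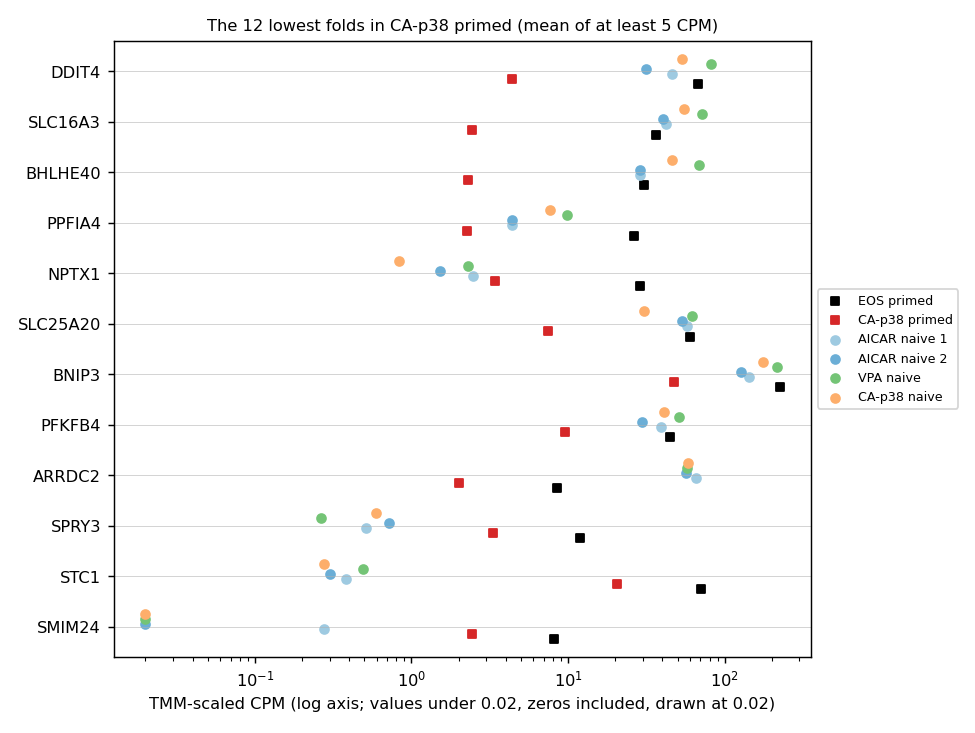
TMM-scaled CPM (log axis; zeros drawn at the left edge) of the 12 genes with the lowest folds in each of the 6 libraries (squares primed, circles naive). CA-p38 primed (red) lies left of EOS primed (black) in every row, and for DDIT4, SLC16A3, BHLHE40, SLC25A20, BNIP3, PFKFB4, ARRDC2 and PPFIA4 also left of all naive libraries.

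Among metabolic genes, glycolysis and the mitochondrial genome lay lower in CA-p38 primed as groups, with few genes past 2-fold. Of 24 glycolysis genes 22 had a log2 fold below 0 (median -0.26, beside 0.06 for all genes), although only SLC16A3 and ENO2 were past 2-fold. Over all genes assessed, 1.23% were past 2-fold lower. ENO2, a neuronal enolase, was at 105 and 51.1 CPM, and with median-ratio scaling it was no longer past 2-fold (log2 fold -0.99). LDHA was at 433 and 229.5 CPM, PGK1 at 526 and 278 CPM and the glucose transporter SLC2A1 at 680 and 346.5 CPM. GAPDH was at 3932 and 4060 CPM. The 13 proteins encoded by mitochondrial DNA had a median log2 fold of -0.58, with 12 below 0 and 0 past 2-fold. MT-ND4, a subunit of complex I, was at 4836 and 2597 CPM, and MT-ND2, the 1 above 0, at 1538 and 1562 CPM. Counts on the mitochondrial chromosome made up 2.92% of EOS primed and 1.85% of CA-p38 primed, and between 3.14% and 3.73% of the naive libraries. Nuclear genes of the same complexes showed no such shift, with a median of -0.02 for 38 NADH dehydrogenase subunits and -0.05 for 44 ATP synthase and cytochrome subunits. Mitochondrial ribosomal proteins had a median of 0.14 over 78 genes.

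Of 6 assessed metallothioneins, small proteins that bind zinc and copper, 4 were past 2-fold lower and 0 higher (median -1.36). Over all genes assessed, 1.23% were lower. MT1H and MT1F reached the filter only through EOS primed, and of the other 4 members 3 were lower. Of all 12 listed, 9 had a lower CPM in CA-p38 primed and 3 had no counts in either. MT1X, whose promoter is printed above, was at 69.4 and 22.3 CPM, and at 95.3 to 145 CPM in the naive libraries. These genes are near-identical copies, and reads can be split between them. None of 22 genes of zinc and iron handling was past 2-fold. Among other lower genes, MAGEA4, a cancer-testis antigen, was at 2.96 and 0.33 CPM, and TRIM4, a ubiquitin ligase, at 4.33 and 0.60 CPM. TRIM4 was also uneven among the naive libraries, from 0.36 to 2.64 CPM. DAZL, an RNA-binding protein of germ cells, was at 3.0 and 0.88 CPM. MAGEA4, TRIM4 and DAZL reached the filter only through EOS primed.

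The remaining lists and families held few genes past 2-fold. None was past 2-fold among the stress response and unfolded protein genes (35), heat shock proteins (19), cholesterol synthesis (25), p53 targets (29), BCL2 family (17), G1 cyclins and CDK inhibitors (18), mitosis (32), NRF2 response (24), cytosolic ribosomal proteins (82), proteasome (37) or tRNA synthetases (35). Medians of these 11 groups lay between -0.04 and 0.18. Of 445 zinc finger genes 2 were higher and 2 lower, and of 251 solute carriers 1 was higher and 4 lower. The shares over all genes assessed were 0.73% higher and 1.23% lower. Among the 39 HOX genes none reached a mean of 1 CPM. Of 37 imprinted genes 1 was higher and 0 lower. In all, 34 of the 100 higher and 44 of the 169 lower genes belong to one of the 41 lists or 33 families. The share of all assessed genes that belong to them was not computed, so these counts show no excess or deficit. By nuclear chromosome, Y left out, the median log2 fold ran from 0.00 on chromosome 22 to 0.10 on chromosome 5. Over 245 windows of 10 Mb with at least 20 genes it ran from -0.07 to 0.33, the latter on chromosome 12 from 80 to 90 Mb over 21 genes. By exon length the median went from 0.03 over the 3426 shortest genes to 0.10 over the 3425 longest.

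The same genes were looked up in naive libraries that the primed comparison does not use, CA-p38 naive against AICAR naive 1, AICAR naive 2 and VPA naive. There the line and the method of induction cannot be told apart, and the lone CA-p38 library is assumed to vary like the other 3, which come from 2 treatments. The number of calls moved from 0 to 66 without VPA naive and 97 without AICAR naive 2, so this fit does not settle whether the line difference was present after naive induction. With edgeR (quasi-likelihood, adjusted by Benjamini-Hochberg), 0 of 31241 genes (0.0%) passed an adjusted p of 0.05, with 972 at an unadjusted p under 0.05 and 6 called by DESeq2. Of the genes past 2-fold in the primed lines, the one with the lowest adjusted p in the same direction was SLC25A20, at 57.1, 53.7 and 61.9 CPM in AICAR naive 1, AICAR naive 2 and VPA naive and 30.4 CPM in CA-p38 naive. Its log2 fold there was -0.92 (edgeR adjusted p = 0.826, DESeq2 adjusted p = 0.00446). The edgeR adjusted p was 0.00171 without AICAR naive 2 and 0.00243 without VPA naive, and ran up to 1.0 over all alternatives. COL3A1, lower in CA-p38 primed, went the other way, at 16.5 CPM in CA-p38 naive and 3.55 to 7.02 CPM in the others. Its edgeR adjusted p was 0.922, and 3.12e-05 without AICAR naive 2. COL1A1, another fibrillar collagen, was at 27.9 CPM in CA-p38 naive and 9.48 to 11.5 CPM in the others, while the fibroblast list summed to 284 CPM there and 226 to 275 CPM in the others. The part of fibroblasts in this difference was not tested. DDIT4 (53.2 CPM), SLC16A3 (54.9 CPM) and BHLHE40 (46.3 CPM) in CA-p38 naive lay inside the range of the other naive libraries. FOXA2 in CA-p38 naive was at 0.41 CPM and CER1 at 0.30 CPM. Of the higher genes with a naive level of at least 1 CPM, 11 of 65 (16.9%) had CA-p38 naive above all 3 others, against 29.2% of all genes. Of the lower ones, 24 of 121 (19.8%) had it below all 3, against 19.4% of all genes.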

How the data were processed

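Poly(A)-selected RNA of 2 primed and 4 naive human embryonic stem cell libraries was sequenced. The authors deposited raw counts per Ensembl gene identifier, made by trimming reads with Trim Galore 0.4.4 and cutadapt 1.15 (per the submitters' processing notes) and mapping them with Bowtie2 to cDNA and noncoding RNA of GRCh38. Use of strand in counting is not given in the sources used here, so antisense pairs may share reads, as may paralogs. Of 61222 features, 26 spike-ins were left out, and 23 columns of other studies were not used. Positions and gene types came from GENCODE release 44, which gave 56154 of 61196 identifiers a position. TMM factors were computed on genes kept by edgeR's filterByExpr by state.

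CPM, folds and Clopper-Pearson intervals were computed in Python 3.11.15 with scipy 1.17.1. The naive libraries were fitted with edgeR 4.0.16 (glmQLFit and glmQLFTest) in R 4.3.3, with DESeq2 1.42.0 as an alternative, both at an adjusted p of 0.05. The interval rule and the edgeR fit were tested on simulated data. Groups came from the sample labels. The AICAR libraries were taken at different passages, and whether these were of 1 culture is not given in the sources used here. Other scalings, filters, fold thresholds, summed identifiers and left-out libraries were tried. Named genes are MAPK11 to MAPK14, the 12 highest and 12 lowest folds at a mean of 5 CPM or more, and from each list or family up to 3 genes past 2-fold in each direction, or the one with the largest fold where none was. Others were named for their role after their values were seen. The comparison, the lists and the families were chosen with earlier results of these data known. At this depth (46823699 to 54277064 counts a library), 3 counts correspond to 0.061 and 0.062 CPM in EOS primed and CA-p38 primed.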

Additional observations from a re-analysis of the deposited data

Results flagged for a closer look

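Outside the protein-coding genes, 2772 lncRNA genes had a count in EOS primed and in none of the other 5 libraries, where the corresponding numbers were 54 to 96. This stood out because these genes enter no comparison of the report. They had 3.11 counts on average and at most 22, and together made up 0.017% of the library. Of them 0.216% lie on the X chromosome, against 1.85% of all lncRNA genes, and their median exon length was 577 bases against 1038. Their mean count was between 2.96 and 3.28 in each of 4 equal bins of exon length.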

How the results depend on the processing

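Scaling by median ratio, library totals or TMM of the primed libraries alone, and summing identifiers of a symbol, moved the numbers of genes higher (100) and lower (169) by less than 1.5 times. With a mean of at least 5 CPM they were 20 and 50, and with only 10 counts over both libraries 456 and 519. At 1.5-fold they were 470 and 616, at 4-fold 10 and 20, and with the whole interval past 2-fold 38 and 71. In alternatives chosen after seeing the data, there were 52 higher and 109 lower with at least 1 CPM in each primed library, and 155 were lower without the hypoxia-responsive list. For 116 named genes, 452 of 464 single values stayed within their counting interval, 12 moved and 0 reversed. The naive comparison called 0 genes with TMM, 6 with DESeq2, and 0 to 97 when 1 library was left out (66 without VPA naive, 97 without AICAR naive 2). Of the primed genes, 0 were called in the same direction with TMM, 1 with DESeq2 and 0 to 2 when 1 library was left out. The cause was not tested. No paired analysis was possible because the primed groups have 1 library each and the naive groups share only 1 replicate number. Depth limits the values of genes with few counts, and 1 library a line means that culture and line cannot be told apart.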
